A study of Glycine max with 14 samples.

Results

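The 3 seed lipoxygenase loci Glyma13g42310, Glyma13g42320 and Glyma15g03030, and the seed lectin locus Glyma02g01590, were followed through the development of the soybean seed coat. All gene models of these 4 loci in the deposited expression table were taken, which gave 5 gene models of 69425 in all. Glyma15g03030 has 2 models and each of the other loci has 1. The loci are listed as LOX1 (Glyma13g42310), LOX2 (Glyma13g42320), LOX3 (Glyma15g03030) and Le1 (Glyma02g01590). The rule uses their names and no measured value, and it was written with earlier results of these data known.

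RNA-Seq libraries were made from dissected seed coats of RM30-R*, a black line, and of RM38-r, a brown line, with 7 libraries per line. RM30-R* (genotype i, R*, T) is a stable black revertant found in the mutable RM55 isoline, and it still carries the TgmR* transposon in intron 2 of the R gene, which encodes a MYB regulator of anthocyanin synthesis. RM38-r (genotype i, r, T) carries the recessive r allele. Both lines are Clark isolines, share the i and T alleles and were grown in a greenhouse. Sorting of the seeds by fresh weight gave steps of 100–200 mg, of 200–300 mg, of 300–400 mg with green cotyledons and of 400–500 mg, and a last group of 300–400 mg that was desiccating. The 300–400 mg and 400–500 mg stages had 2 libraries per line and the other 3 stages had 1. The 400–500 mg libraries came from independent RNA extractions, and the study calls 1 set of them a biological replicate. No source used here says which plants a library came from, so the p-values measure the spread between libraries, which may be partly technical. RM30-R* is a single revertant line, so other differences between the isolines cannot be told apart from that of the R gene.

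Lipoxygenases add oxygen to polyunsaturated fatty acids and give hydroperoxides, from which plants make jasmonates and volatile aldehydes. The seed isozymes of soybean are abundant proteins of the cotyledons and are known for the beany flavour of soy products. The seed lectin, also called soybean agglutinin, is a protein that binds galactose and N-acetylgalactosamine, and it is stored in the protein bodies of the cotyledons. The seed coat is a maternal tissue that surrounds the embryo, with remnants of the endosperm on its inner face.

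The names of the 2 chromosome 13 loci could not be checked, since the table pairs no locus with a name. RefSeq (assembly Glycine_max_v4.0) lists LOX2, LOX1.1, LOXB1 and LOX7 as consecutive genes on chromosome 13, after W1. W1 is Glyma13g04210 in the numbering used here, so both run in the same direction. If the local order is the same in both assemblies, Glyma13g42310 would be LOX2 and Glyma13g42320 would be LOX1, the reverse of the listed names. The values given here therefore belong to the locus numbers. On chromosome 15 RefSeq lists LOX3, LOC100803358 and VLXB as consecutive genes in this order.

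Values are RPKM, read counts scaled by the length of the gene model and by the mapped alignments of the library. The libraries held 49509767 to 120239040 mapped alignments (median 75101834), as recovered from the steps between low values. The member values rested on 46 to 77941 reads. Counting error was therefore small beside the differences between libraries. Among 13118 low gene models, 98.4% gave whole reads in every library. The RM38-r libraries R125 (300–400 mg) and R113 (400–500 mg) stood apart: 31 gene models that hold at least 1% of the summed RPKM in some library took 40.5% and 23.7% of it there, against 2.37% to 10.5% in the other 12. The 8 loci taken as seed coat markers summed to 56.6 to 1551 RPKM. Of these loci 7 were expressed, all anthocyanin pathway genes in the study, while Glyma09g02600 stayed at 0 to 0.616 RPKM. The 19 loci of an embryo and storage-tissue list that were found in the table summed to 215.4 to 3764 RPKM, and 0 of them were at 0 in any library. These 19 loci are given by number, since the files pair no names with them, and their place on the list could not be checked. Whether RNA from the embryo or endosperm was in the seed coat samples was not tested, and in bulk tissue fewer cells of a type cannot be told apart from less RNA per cell.

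Glyma13g42310 was lowest in the youngest seed coats, at 1.97 RPKM in RM30-R* against 2.64 in RM38-r. At 200–300 mg it stood at 37.3 RPKM in RM30-R* against 33.8 in RM38-r. The gap between the stages was thus far wider than that between the lines. At 300–400 mg the RM30-R* libraries R123 and R154 had 41.9 and 16.3 RPKM, and the RM38-r libraries R125 and R156 had 21.4 and 44.9 RPKM. Each line had 1 high and 1 low library, so the lines overlapped. The 400–500 mg stage had 16.5 RPKM in R111 and 18.2 RPKM in R155 of RM30-R*, against 16.0 RPKM in R113 and 36.4 RPKM in R157 of RM38-r. The desiccating seed coats had 11.0 RPKM in RM30-R* against 9.17 in RM38-r, below every green stage except the first. By rank, the locus was above 46.1% of the gene models with a value above 0 in R42, the youngest RM30-R* library, and above 96.3% of them in R156.

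Glyma13g42320 was the lowest of the 3 lipoxygenase loci in every library. It had 0.482 RPKM in RM30-R* against 0.861 in RM38-r at 100–200 mg, and 4.66 RPKM in RM30-R* against 7.40 in RM38-r at 200–300 mg. At 300–400 mg the RM30-R* libraries had 4.15 and 1.68 RPKM, against 7.57 and 6.10 RPKM in the RM38-r libraries. Here the lines did not overlap, with RM30-R* lower. Values at 400–500 mg were 3.64 and 2.67 RPKM in RM30-R* against 3.31 and 6.68 RPKM in RM38-r, which overlap. The desiccating seed coats had 2.99 RPKM in RM30-R* against 4.87 in RM38-r, inside the range of the green stages from 200 mg on.

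Glyma15g03030, LOX3, followed another course. At 100–200 mg it had 8.88 RPKM in RM30-R* against 8.54 in RM38-r, which made it the highest of the 4 loci at this stage. At 200–300 mg it had 23.6 RPKM in RM30-R* against 42.5 in RM38-r. At 300–400 mg it had 14.8 RPKM in R123 and 11.7 RPKM in R154 of RM30-R*, against 41.7 RPKM in R125 and 74.7 RPKM in R156 of RM38-r. The lines did not overlap at this stage, and the lower RM38-r library was well above the higher RM30-R* library. The next stage, 400–500 mg, had 41.1 and 25.5 RPKM in RM30-R*, against 46.5 and 43.01 RPKM in RM38-r, again without overlap but with a small gap. In the desiccating seed coats it reached 229.6 RPKM in RM30-R* against 468.4 in RM38-r. These were the highest member values in the series, and placed the locus at rank 226 and rank 97 among the gene models of these libraries. The second model of the locus, Glyma15g03030.2, had 0.843 to 0.857 times the RPKM of the first in every library. It is longer (3280 nt against 2830 nt) and had nearly the same reads, 76105 against 77941 in the desiccating RM38-r library. Reads that fit both models were counted in both, so the 2 models cannot be told apart and the first is used from here on.

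Glyma02g01590, the lectin locus, varied most between replicate libraries. It had 2.60 RPKM in RM30-R* against 5.02 in RM38-r at 100–200 mg, and 10.0 RPKM in RM30-R* against 28.8 in RM38-r at 200–300 mg. The RM30-R* libraries of 300–400 mg had 16.2 and 4.91 RPKM, against 6.24 and 0.707 RPKM in those of RM38-r. The value of 0.707 RPKM in R156 rests on 46 reads, with a 95% Wilson interval of 0.53 to 0.943 RPKM. At 400–500 mg it had 3.45 and 7.75 RPKM in RM30-R*, against 3.37 and 19.4 RPKM in RM38-r. The lines overlapped at both replicated stages. The desiccating seed coats had 0.827 RPKM in RM30-R* (49 reads) and 2.73 RPKM in RM38-r. For RM30-R* this was its lowest level.

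**Figure D1:**
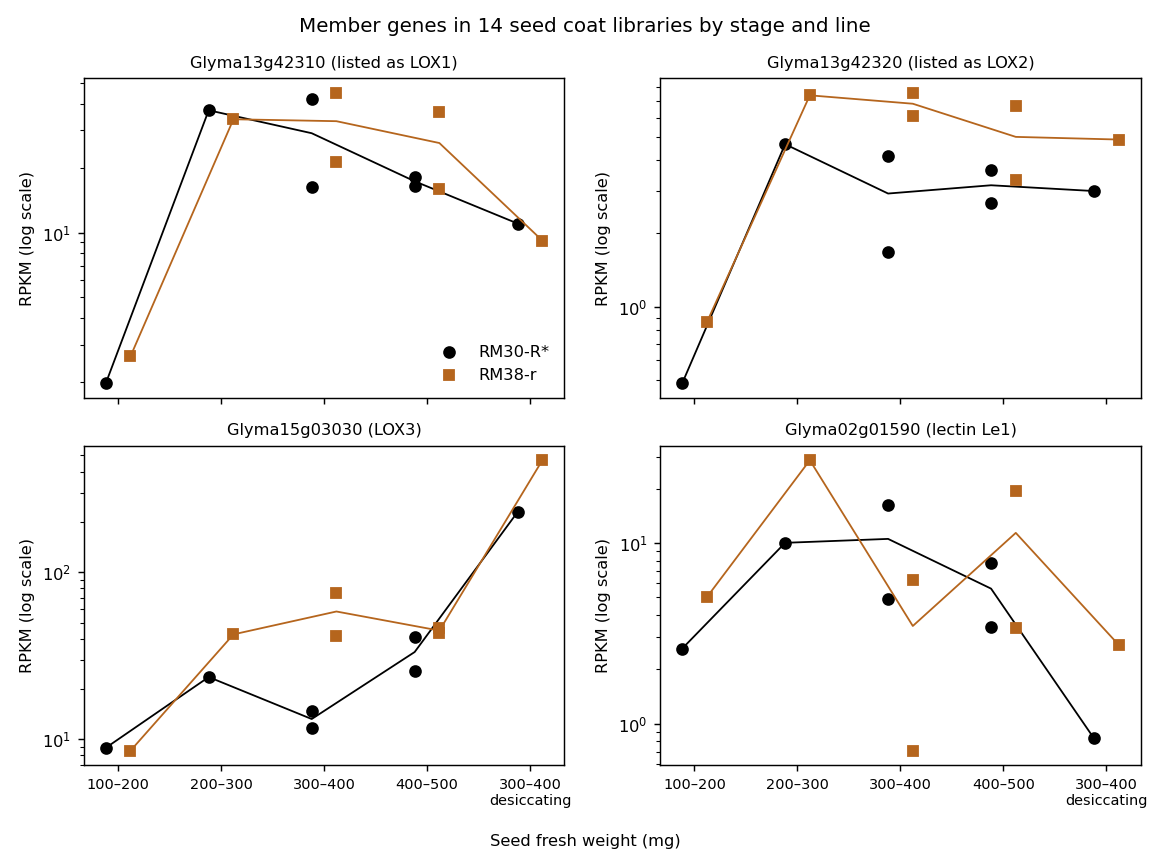
Expression of the 4 loci (first model, RPKM, log scale) against seed fresh weight in mg, with RM30-R* as black circles left of RM38-r as brown squares. Each point is a library and lines join the means. The 2 chromosome 13 loci stand lowest at 100–200 mg, Glyma15g03030 stands highest in the desiccating seed coats at 229.6 RPKM in RM30-R* against 468.4 in RM38-r, and the lectin locus scatters most within the replicated stages.

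The first question was how each locus changed over development. Successive stages were compared with limma on log2(RPKM + 0.5) over all 14 libraries, with line as a term, and p-values were adjusted by the Benjamini-Hochberg method over 44080 gene models with at least 0.5 RPKM in 2 or more libraries. All 4 loci passed this filter. Between 100–200 mg and 200–300 mg 3 of the 4 loci rose, whereas 4.27% of all gene models tested rose and 16.7% changed in either direction. That share is 7353 models, against 1406 without R43, 2199 without R42, 3697 without R122 and 3707 without R124. The member list is too short for this to be read as more than a count. Glyma13g42310 rose by 3.69 on the log2 scale (SE 0.47, adjusted p = 0.000142), which is a ratio of means of 18.9 in RM30-R* and 12.8 in RM38-r. Glyma13g42320 rose by 2.47 (SE 0.39, adjusted p = 0.000841 by limma), with a ratio of 9.67 in RM30-R* and 8.6 in RM38-r. Glyma15g03030 rose by 1.80 (SE 0.49, adjusted p = 0.0249 by limma), with a smaller ratio in RM30-R* (2.65) than in RM38-r (4.97). This last call was lost without the line term (a difference of 1.80, adjusted p = 0.103) and when 1 of 3 libraries was left out, with 1.204 without R43 (adjusted p = 0.274), 1.72 without R122 (adjusted p = 0.142) and 1.89 without R124 (adjusted p = 0.112). The lectin locus was higher in both lines, but its difference of 2.09 (SE 1.07) did not pass (adjusted p = 0.226 by limma). Each of these stages has 1 library per line, so the lines stand in for replicates. Their library numbers are also of different series (R42 and R43 against R122 and R124), so series and stage cannot be told apart.

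Between the 3 middle stages no step passed the test for any of the 4 loci. From 200–300 to 300–400 mg 0 of the 4 loci and 0% of the gene models were called by limma, where 2142 of 44080 models had an unadjusted p under 0.05. The differences were −0.31 (SE 0.41) for Glyma13g42310, −0.40 (SE 0.34) for Glyma13g42320, −0.21 (SE 0.42) for Glyma15g03030 and −1.75 (SE 0.93) for the lectin locus. From 300–400 to 400–500 mg 0 of the 4 loci were called, against 0.504% of the models (0.456% higher and 0.0476% lower). These differences were −0.47 (SE 0.33), −0.15 (SE 0.27), 0.48 (SE 0.35) and 0.44 (SE 0.76) in the same order. Of these 8 differences, that of the lectin locus from 200–300 to 300–400 mg had the largest size and also the largest error.

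At desiccation the 4 loci parted. Glyma15g03030 rose by 3.09 on the log2 scale against 400–500 mg (SE 0.42, adjusted p = 0.000574 by limma), an 8.52-fold difference, where 9.17% of all gene models tested rose, 8.76% fell and 17.9% changed in all. That share is 7903 models, against 3384 without R110 and 1091 without R112. The ratio of means was 6.89 in RM30-R* and 10.5 in RM38-r. The call held in every alternative and with every library left out, with a log2 difference of 2.98 to 3.31 when 1 library was left out. The other 3 loci did not pass. Glyma13g42310 differed by −0.99 (SE 0.41, adjusted p = 0.114), the lectin locus by −1.77 (SE 0.93, adjusted p = 0.212) and Glyma13g42320 by −0.01 (SE 0.34, 95% interval −0.74 to 0.73). While Glyma15g03030 rose, the summed RPKM of the embryo list was 1160 in RM30-R* and 836.8 in RM38-r, below its 1588 to 2297 RPKM at 400–500 mg, and 7 of its 19 loci fell by limma and 0 rose. The seed coat list fell as well in 5 of 7 loci tested. All 7 are anthocyanin pathway genes in the study, so their fall is no measure of the seed coat tissue. The part of either tissue in the Glyma15g03030 result was not tested.

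The balance between the lipoxygenase loci changed with stage. Within a library, the ratio of the Glyma15g03030 RPKM to the Glyma13g42310 RPKM was 4.50 in RM30-R* and 3.23 in RM38-r at 100–200 mg. The 200–300 mg libraries had 0.633 in RM30-R* and 1.26 in RM38-r. At 300–400 mg it was 0.352 and 0.716 in the RM30-R* libraries, against 1.95 and 1.67 in the RM38-r libraries. In the middle stages Glyma13g42310 was thus the leading lipoxygenase locus in 3 of the RM30-R* libraries and in none of RM38-r. At 400–500 mg the ratio was 2.49 and 1.40 in RM30-R* and 2.91 and 1.18 in RM38-r, so that Glyma15g03030 led in all 4 libraries. At desiccation it was 20.8 in RM30-R* and 51.1 in RM38-r. The ratio of Glyma13g42310 to Glyma13g42320 stayed above 1 in all 14 libraries, from 1.88 in R112, the desiccating RM38-r library, to 10.1 in R123, the first RM30-R* library at 300–400 mg. Such ratios are within a library and do not depend on its scaling.

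**Figure D2:**
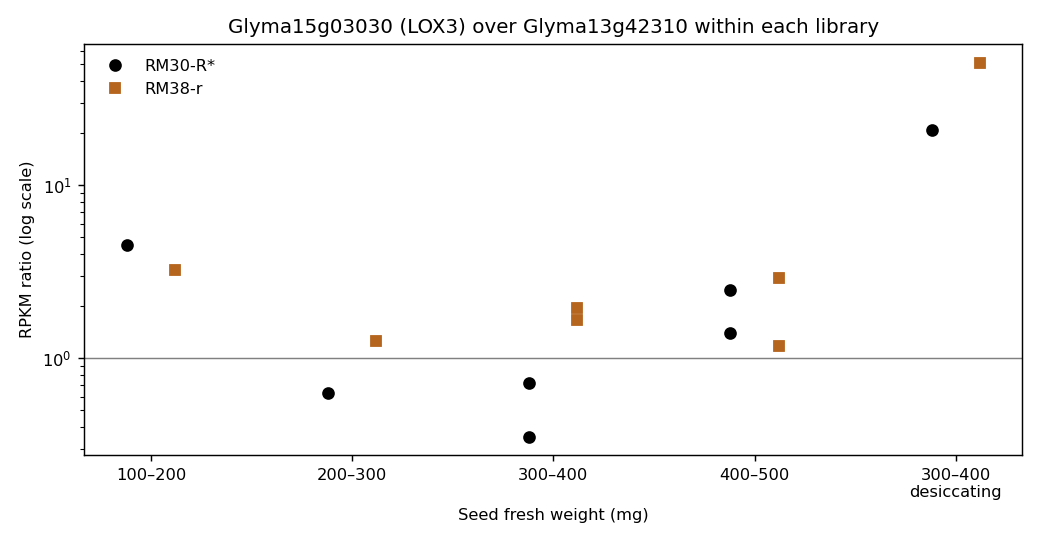
Ratio of Glyma15g03030 to Glyma13g42310 RPKM within each library (log scale) against seed fresh weight in mg, with RM30-R* as black circles left of RM38-r as brown squares, and a grey line at a ratio of 1. The ratio lies under 1 in the RM30-R* libraries at 200–300 and 300–400 mg, and reaches 20.8 in RM30-R* and 51.1 in RM38-r at desiccation.

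The second question was whether the loci differed between the black and the brown line. At 300–400 mg Glyma15g03030 had 13.2 ± 2.2 RPKM in RM30-R* against 58.2 ± 23.3 RPKM in RM38-r (SD, n = 2 libraries each). On the log2 scale it was lower in RM30-R* by a difference of −2.05 (SE 0.34, 95% interval −2.81 to −1.28). The limma fit to the 8 libraries of the replicated stages tested 40334 gene models and called 12 of them, or 0.0298% (0.00992% higher and 0.0198% lower in RM30-R*). It called 464 without R125, 169 to 181 without R111, R155, R113 or R157, and 0 without R123 or R156. None of the 4 loci was among the 12, and Glyma15g03030 missed the threshold (adjusted p = 0.0841, unadjusted p = 0.000172). The same difference passed when library pairs entered as a block (SE 0.31, adjusted p = 0.0259 by limma), and that fit called 895 gene models. The libraries of a pair deviated together from their group means, with r = 0.184 (300–400 mg) and r = 0.605 (400–500 mg) over the gene models. The fit to the 4 libraries of this stage alone also called it (adjusted p = 0.00199), among 852 models. The call thus depends on the model of the spread. Leaving out R125, the RM38-r library with the unusual composition, gave −2.46 (adjusted p = 0.0328 by limma), where R156 is then the only RM38-r library of the stage and is assumed to vary like the other groups. The difference also passed without R111, R155, R113 or R157 and missed the threshold without R123, R154 or R156. Its value was −2.46 to −1.63 when 1 library was left out. The median of all gene models was higher in RM30-R* by 0.33 at this stage, and rescaling to equal 75th percentiles brought it to 0.04 and the Glyma15g03030 difference to −2.38.

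The other loci showed no difference past the threshold at 300–400 mg. Glyma13g42320 was lower in RM30-R* by a difference of −1.20 (SE 0.43, adjusted p = 0.334 by limma), with an unadjusted p of 0.0204. Glyma13g42310 differed by −0.24 (SE 0.53, 95% interval −1.42 to 0.94), and the lectin locus by 1.74 (SE 0.95, 95% interval −0.39 to 3.86), which changed to 0.50 when R156 was left out. Both libraries of RM30-R* were below both of RM38-r for 2 of the 4 loci, Glyma15g03030 and Glyma13g42320, as for 3.54% of all gene models tested. Both were above for 0 of the 4 loci, as for 41.6% of all gene models. Neither marker list had a locus called at this stage, and the embryo list summed to 2107 and 1402 RPKM in RM30-R* and to 1512 and 2905 RPKM in RM38-r, which overlap. The seed coat list, mostly genes of anthocyanin synthesis, summed to 606.9 and 581.8 RPKM in RM30-R* and to 121.8 and 149.7 RPKM in RM38-r.

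At 400–500 mg the means of the 4 loci were lower in RM30-R* by small differences, −0.47 (SE 0.53) for Glyma13g42310, −0.53 (SE 0.43) for Glyma13g42320, −0.46 (SE 0.34) for Glyma15g03030 and −0.62 (SE 0.95) for the lectin locus. In the pair R111/R113 only Glyma15g03030 was lower in RM30-R*. Without R157 the difference was 0.117 for Glyma13g42310 and 0.56 for the lectin locus. None of the 4 differences passed the test, as 0% of the 40334 models did by limma (141 had an unadjusted p under 0.05). Glyma15g03030 alone had both RM30-R* libraries below both RM38-r libraries, as had 2.9% of all gene models, and 0 of the 4 loci had both above, as had 17.4%. Its mean was 33.3 ± 11.0 RPKM in RM30-R* against 44.8 ± 2.5 RPKM in RM38-r (SD, n = 2 libraries each). The change in its line difference between the 2 replicated stages was 1.59 (SE 0.48, unadjusted p = 0.00874), which did not pass after adjustment (adjusted p = 0.995 by limma). For the lectin locus this change was −2.36 (SE 1.34), with a 95% interval of −5.37 to 0.65. The interaction called 0 of 40334 models, and 1298 had an unadjusted p under 0.05.

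Over all stages the libraries form 7 pairs of the same stage and library number series, each with 1 library per line. The log2 ratio of RM30-R* over RM38-r for Glyma15g03030 was below 0 in 6 of 7 pairs, with a mean of −0.97 ± 0.89 (SD, n = 7 pairs). Its exception was the youngest pair, with a ratio of 0.05, and its lowest value was −2.63 in the pair R154/R156. For Glyma13g42320 the ratio was also below 0 in 6 pairs, with a mean of −0.74 ± 0.54, and its exception was the pair R111/R113 with 0.12. Flipping the signs of the pairs in an exact permutation test (two-sided) gave p = 0.0312 for each of these loci, where the smallest p that 7 pairs allow is 0.0156. Among all models tested 1.98% were lower in RM30-R* in at least 6 of the 7 pairs. The ratio of Glyma13g42310 was below 0 in 3 pairs (mean −0.20 ± 0.80, exact permutation p = 0.547) and that of the lectin locus in 4 (mean −0.19 ± 1.43, exact permutation p = 0.75). Across all gene models the limma fit with the pairs as a block called 0 of 44080 (4016 had an unadjusted p under 0.05), and the adjusted p was 0.432 for both Glyma15g03030 and Glyma13g42320. Without the pair R154/R156 the mean ratio of Glyma15g03030 was −0.70 with an exact permutation p of 0.0625, where 6 pairs cannot give a p below 0.0312. With any 1 library left out, 6 pairs remain, and p stayed under 0.05 only for Glyma13g42320 without R111 or R113 and for Glyma15g03030 without R42 or R43. In these cases the pair left out was the exception of the locus, and 6 pairs of the same sign always give p = 0.0312 in this permutation test. With the exception kept, 6 pairs could not give a p under 0.05. The pattern thus follows from the signs alone.

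**Figure D3:**
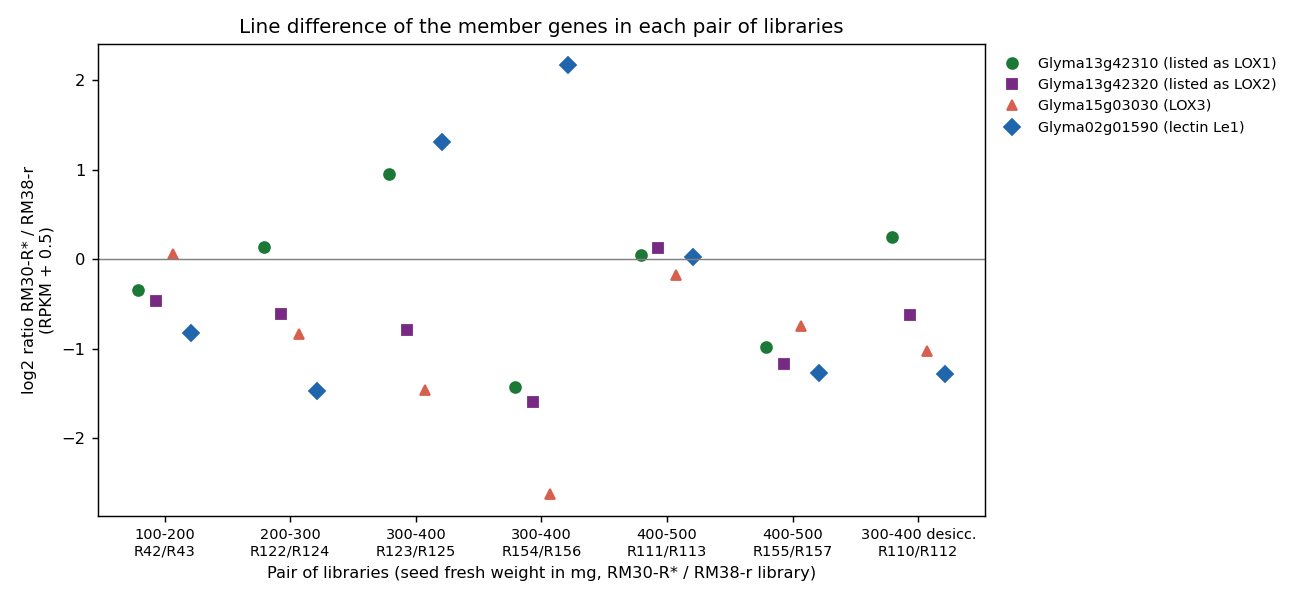
The log2 ratio of RM30-R* over RM38-r (RPKM + 0.5) of each locus in the 7 pairs of libraries, in stage order, with a grey line at 0. Glyma15g03030 (triangles) and Glyma13g42320 (squares) lie below 0 in 6 of the 7 pairs, and the lectin locus (diamonds) lies on both sides.

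The lipoxygenase loci on chromosome 13 had the most similar courses. The log2 values of Glyma13g42310 and Glyma13g42320 correlated with r = 0.845 over the 14 libraries and 0.897 over the 12 libraries of green stages. Glyma15g03030 correlated with Glyma13g42310 with r = 0.20 over all libraries and 0.685 over the green stages, and with Glyma13g42320 with r = 0.544 and 0.834. These libraries share stages and pairs, so the values are descriptions. The lectin locus correlated with Glyma13g42310 with r = 0.387, and with r = 0.645 without R156. By Spearman rank correlation without R156 this pair had 0.835, above the 0.643 of the chromosome 13 loci (0.662 with R156). With Glyma15g03030 the lectin locus gave r = −0.383 over all libraries and −0.0669 over the green stages.

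Between the RM38-r libraries of 300–400 mg, the lectin locus was 8.83-fold lower in R156 than in R125, and 99.2% of all gene models differed by less on the log2 scale. In the same libraries Glyma13g42320 was 1.24-fold lower in R156, while Glyma13g42310 was 2.1-fold and Glyma15g03030 1.79-fold higher. The embryo list was also split, with 6 of its 19 loci lower in R156 than in R125 and 13 higher. Those lower included Glyma08g12270, with 1.85 RPKM in R156 and 10.9 RPKM in R125, and Glyma03g32030, with 2.51 RPKM in R156 and 8.16 RPKM in R125. Those higher included Glyma10g39150, with 648.2 RPKM in R156 and 241.8 RPKM in R125. At 400–500 mg the RM38-r libraries differed again at the lectin locus, 5.76-fold higher in R157 than in R113. Glyma13g42310 (2.28-fold) and Glyma13g42320 (2.02-fold) were also higher in R157, and Glyma15g03030 was 1.08-fold lower.

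Among 16296 gene models with at least 10 RPKM in 2 or more libraries, those most like each member over the 14 libraries (Pearson r of log2 values) were Glyma19g01450 for Glyma13g42310 (r = 0.957), Glyma16g07800 for Glyma13g42320 (r = 0.928), Glyma05g37290 for Glyma15g03030 (r = 0.99) and Glyma16g33400 for the lectin locus (r = 0.93). The second was Glyma10g39150 for Glyma13g42310 (r = 0.949) and Glyma08g12270 for the lectin locus (r = 0.922), both from the embryo list. None of the 5 models most like Glyma15g03030 was on that list. All 5 peaked in R112, the desiccating RM38-r library, which their choice by likeness to Glyma15g03030 made nearly certain. Of the 19 loci of the embryo list, 9 were most like Glyma13g42310, 5 most like Glyma13g42320, 4 most like the lectin locus and 1 most like Glyma15g03030. Glyma20g28460 and Glyma20g28640 had nearly the same values in every library, as had Glyma20g28650 and Glyma20g28660. The counts of this list are therefore not counts of independent loci. For all 8 loci of the seed coat list the highest of the 4 correlations was that with the lectin locus (median r = 0.364). It was low for some, from −0.0634 for Glyma09g02600 to 0.484 for Glyma05g36210. Their median r was −0.352 with Glyma13g42310, −0.613 with Glyma13g42320 and −0.896 with Glyma15g03030. The sum of the embryo list was lowest at 100–200 mg, with 215.4 RPKM in RM30-R* against 265.3 in RM38-r. It was highest at 200–300 mg, with 3356 RPKM in RM30-R* against 3764 in RM38-r. Of the 19 embryo list loci 12 rose and 0 fell over this step by limma, where 4.27% of all gene models tested rose and 12.4% fell. The 3 lipoxygenase loci rose at the same step. The part of the embryo list in the rise of the lipoxygenase loci was not tested.

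**Figure D4:**
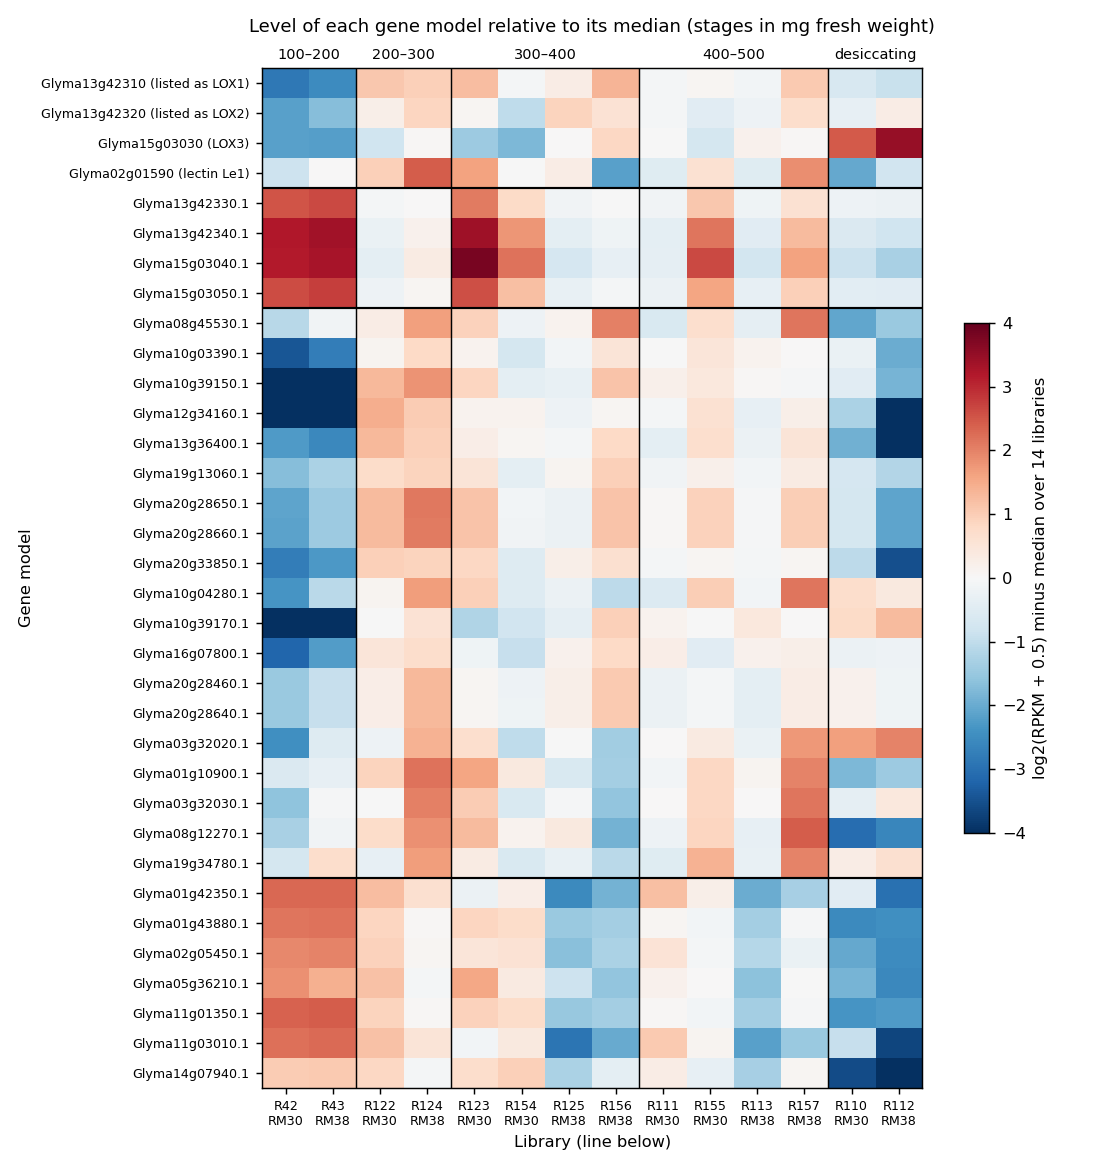
Level of each gene model, as log2(RPKM + 0.5) minus its median over the 14 libraries, with stages in order and RM30-R* left of RM38-r within a stage. Blocks from the top are the 4 loci, the next loci by number, the 19 loci of the embryo list ordered by the member they are most like, and 7 loci of the seed coat list. The lectin locus and a subset of the embryo list are blue in R156, and Glyma15g03030 is dark red in the 2 desiccating libraries.

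The loci that follow the lipoxygenases by number were lower at 200–300 mg than at 100–200 mg, the step at which the lipoxygenases rose. RefSeq places LOXB1 and LOX7 beside the chromosome 13 genes and LOC100803358 and VLXB beside LOX3, but the files do not say which locus number each has. The next numbers, Glyma13g42330, Glyma13g42340, Glyma15g03040 and Glyma15g03050, were highest at 100–200 mg or in R123, the first RM30-R* library at 300–400 mg. Glyma15g03040 had 12.6 RPKM in RM30-R* against 13.7 in RM38-r at 100–200 mg, and 0.612 RPKM in RM30-R* against 1.30 in RM38-r at 200–300 mg. The 300–400 mg libraries R123 and R154 of RM30-R* had 19.8 and 6.015 RPKM of this locus, whereas R125 and R156 of RM38-r had 0.4025 and 0.6653 RPKM. All 4 next loci were higher in RM30-R* at this stage, though not called by limma. Their median log2 difference was 2.48, against 0.327 over all gene models. Glyma15g03030 was lower in RM30-R* at the same stage (−2.05). At desiccation Glyma15g03040 had 0.305 RPKM in RM30-R* against 0.0913 in RM38-r. Of these 4 loci, 3 fell from 100–200 to 200–300 mg by limma, where 12.4% of all gene models fell, and 0 were called in any other comparison. These 4 loci were high and low in much the same libraries, so their counts are not counts of independent loci. Their correlation over the 14 libraries was −0.784 to −0.734 with Glyma15g03030, −0.729 to −0.592 with Glyma13g42320 and −0.538 to −0.287 with Glyma13g42310. They did not run against the lipoxygenases throughout. R123 was also a high library of Glyma13g42310 (41.9 RPKM), and at desiccation all 4 had a negative difference that was not called (median −1.13), as Glyma13g42310 had (−0.99). The next locus, Glyma15g03060, stayed at 0 to 0.145 RPKM.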

How the data were processed

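Seed coat RNA of 14 soybean libraries, 7 per line, was sequenced by the authors on an Illumina HiSeq2000. The deposited unit is RPKM, for which the authors aligned reads with Bowtie (version 1) to the Glyma1 gene models, counted reads with several alignments at each of them, and scaled for the length of the model and the mapped total. Such reads are shared between similar genes, which could not be undone, and the strand was not given in the sources used here. Complete lines were found for 69425 gene models (61337 loci), and 1 incomplete last line was left out. Groups came from the stage and genotype labels, and pairs from the library numbers in the titles. The members and lists were chosen with earlier results of these data known. The named gene models are all those of the 4 loci and, for each, the models with the most similar values.

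Whole reads were recovered from the steps between low RPKM values, with a tolerance of 0.02 reads. Wilson intervals (95%) cover counting error only. RPKM is no count, so limma (version 3.58.1, R 4.3.3) was used on log2(RPKM + 0.5), with a variance trend, two-sided tests, the Benjamini-Hochberg method and an adjusted p threshold of 0.05, where 2 or more libraries reached 0.5 RPKM. Fold changes on this scale understate those of low values. The fit was tested on simulated data. Ratios over the 7 pairs were put to an exact permutation test that flips the signs (two-sided), in Python 3.11.15 (numpy 2.4.6, pandas 2.3.3, scipy 1.17.1, matplotlib 3.10.9). The library pairs were set by library number. As a check, the libraries of a pair deviated together from their group means at both replicated stages, weakly at 300–400 mg (r = 0.184 against 0.605 at 400–500 mg). Stages with 1 library per line allow no such check. Alternatives were another pseudocount (0.1 or 1), another filter (none, or 1 RPKM), equal 75th percentiles, quantile normalization, totals without the largest gene models, 1 model per locus, no trend, the block, the compared groups only, no line term, 6 pairs, and leaving out each library. Lists of further lipoxygenase, lectin and oxylipin genes were not used here, since no source used here annotates the locus numbers, and no sequences were used.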

Additional observations from a re-analysis of the deposited data

How the results depend on the processing

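Of the line differences at 300–400 mg, 0 of the 4 loci were called as fitted, and 1, Glyma15g03030, was called with the replicate block, with the block and equal 75th percentiles, with the block and totals without the largest gene models (both added after seeing the data) and with the compared groups only. Leaving out each library gave 0 to 1. The count over all models was 12 as fitted, 895 with the replicate block, 172 with the block and equal 75th percentiles, 228 with the block and totals without the largest gene models, and 852 with the compared groups only. Leaving out each library gave 0 to 464, and it was 0 to 6 with pseudocount 0.1, the other filters, the other scalings or 1 model per locus. The block changed no other call of a member, and called 10 models for the interaction (0 as fitted). Of the mean ratios over 7 pairs 2 passed, against 0 over 6 pairs without the desiccating pair, 0 without R154/R156 (added after seeing the data), and 0 to 1 with each library left out, where 6 pairs remain and the smallest p is 0.0312. From 100–200 to 200–300 mg 3 loci were called, and 2 to 3 with each library left out.

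No called value reversed. The desiccation difference of Glyma13g42320 was 0.01289 with quantile normalization, and the mean ratio of Glyma13g42310 was 0.0112 without R154/R156. With each library left out, these uncalled values took both signs: for Glyma13g42310 the interaction (−0.89 to 0.44), the line difference at 300–400 mg (−0.91 to 0.43) and 400–500 mg (−1.05 to 0.12) and the pairs (−0.39 to 0.0112); for the lectin locus the line difference at 400–500 mg (−1.81 to 0.56), the pairs (−0.59 to 0.0191) and the step to 400–500 mg (−0.37 to 1.098); for Glyma15g03030 the step to 300–400 mg (−0.57 to 0.0429, and −0.56 to 0.0447 for its second model); and for Glyma13g42320 the step to 400–500 mg (−0.43 to 0.0584) and desiccation (−0.22 to 0.12). The cause was not tested. The count of models changed at desiccation was 7903 as fitted, 1091 to 11835 with each library left out, 13843 with equal 75th percentiles and 12840 with quantile normalization. From 100–200 to 200–300 mg it was 7353, against 1406 to 10226 with each library left out, 11336 with equal 75th percentiles, 12596 with quantile normalization and 11194 with no filter. From 300–400 to 400–500 mg it was 222, against 21 without R113, 23 without R111, 55 without R155, 88 without R157, 106 without R125, 110 without R123, 74 with no filter, and 346 to 444 with the other scalings. The shares of all models called that stand beside the members' counts move with these.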
